A study of Mus musculus with 30 samples.

Results

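A set of 75 genes, of 18097 on the array and 11177 with a tested probe, had a higher mRNA signal after doxycycline (Dox) was withdrawn from 4 rescue clones of mouse embryonic stem cells (ESCs) and no such change in a control clone. The signals were raised to a floor of 32, taken to log2 and quantile-normalized over 30 arrays, so that a signal at the floor reads 5. A gene belongs to the set if the mean of the 3 arrays without Dox exceeded the mean of the 3 arrays with Dox by at least 0.5 on the log2 scale in each of Bub1b_R, Chek1_R, Ppm1g_R and Ppp2r1b_R, and by less than 0.3 in Control_R. Of the 133 tested probes past the limit in the 4 clones (0.878% of 15151), 13 were left out by name, among them T, Evx1, Cdx2 and symbols of the cryptdin, collagen and Hox families, and 35 had a change of 0.3 or more in Control_R. The other 85 probes stand for the 75 genes. Because the changes themselves chose the genes, they are given as a description and were not tested.

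All samples came from the ESC line Ainv15, which expresses the reverse tetracycline transactivator rtTA, and the labels name the strain background 129P2/OlaHsd for Control_R. In a rescue clone, an shRNA depletes the endogenous mRNA of one gene while Dox switches on a copy of that gene that the shRNA does not recognize. Bub1b and Chek1 encode checkpoint kinases of mitosis and of the DNA damage response, Ppm1g a serine/threonine phosphatase and Ppp2r1b a scaffold subunit of another. Each clone was kept in LIF medium with 1 μg/ml Dox (+Dox) or grown without it for 5 days (-Dox), 3 arrays per condition. The labels place the lines on fibroblast feeders for upkeep, and the methods describe the differentiation experiment as free of feeders, after plating that let the fibroblasts attach. The methods describe 3 independent clones per rescue gene, and no label says which of them the arrays used. A clone carries its own lentiviral insertions, so clone and targeted gene cannot be told apart. Nothing in the labels says that the 3 arrays of a condition come from separate cultures, and p-values measure only the spread between these arrays.

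ESCs that leave self-renewal commonly pass through a state that resembles the primitive streak, the site where the epiblast gives rise to mesoderm and endoderm. Wnt and activin or Nodal ligands drive that passage, BMP and FGF ligands pattern the cells that emerge, and extracellular antagonists such as follistatin limit the reach of the ligands. Innate immune genes respond to interferon and to foreign nucleic acid in most somatic cells, whereas the response is weak in ESCs.

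The arrays differed in ways that touch the values below. Per array, 11733 to 13685 probes had a detection p under 0.05, and detection began at a signal of 12.9 to 20.9 on the 12 Bub1b_R and Control_R arrays but at 27.8 to 58.1 on the other 18. The floor therefore lies above the detection limit on the former and near it on the latter. Of the targeted mRNAs, only that of Ppm1g was clearly lower without Dox in its own clone, by a change of -1.29. Bub1b had a change of -0.14 in Bub1b_R, from 9.75 to 9.79 with Dox to 9.55 to 9.67 without. The latter lay below all 24 arrays of the other clones (9.72 to 10.58). Ppp2r1b had a change of 0.24 in Ppp2r1b_R, which is not a loss on Dox withdrawal. It read 5.38 to 5.82 with Dox there, below all 24 arrays of the other clones (5.89 to 7.64), and 5.74 to 6.15 without. Chek1 had changes of 0.58 and 0.07 on its 2 probes in Chek1_R, opposite to a loss on Dox withdrawal, and those samples are therefore called the arrays labelled Chek1_R. On the first of these probes they read 5.00 with Dox and 5.27 to 5.84 without, below all 24 other arrays (6.11 to 7.27). According to the methods, the rescue copy of Chek1 lacks the sequence that the shRNA targets, and whether the probes can bind that copy was not checked. Of 13 tested genes of a list of fibroblast feeder markers, 4, 7, 4 and 5 had a change of at least 0.5 in Bub1b_R, Chek1_R, Ppm1g_R and Ppp2r1b_R and 0 in Control_R (over all tested genes 5.55%, 6.32%, 4.36%, 4.59% and 2.18%). Col1a1 (0.65, 1.20, 1.09 and 1.20) and Col5a1 (0.53, 1.11, 0.51 and 0.57) were past 0.5 in all 4 clones. The summed signal of the list lay between 3319 and 3434 with Dox and between 5225 and 5450 without it on the arrays labelled Chek1_R, and between 3467 and 3527 with Dox and 3491 and 3540 without it in Control_R. In the other 3 clones the sum was also higher on every array without Dox than on any array with it. Of its 20 genes, 6 (Col1a2, Postn, Lum, Fap, Mgp and Ptx3) were undetected on all 30 arrays. All 10 genes of a list of ESC markers were detected on every array, and their summed signal was lower without Dox in Ppp2r1b_R (73369 to 75269 with Dox, 62586 to 65633 without), Bub1b_R (77057 to 77570, 70615 to 72652), on the arrays labelled Chek1_R (76326 to 78381, 73289 to 76169) and in Control_R (79044 to 84062, 75134 to 78545). The part of either cell type in the changes was not tested, and in bulk RNA fewer cells of a type and less RNA per cell cannot be told apart.

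The median change of the 75 genes on Dox withdrawal was 0.92 in Bub1b_R, 0.82 in Ppm1g_R, 0.79 in Ppp2r1b_R and 1.30 on the arrays labelled Chek1_R, beside a median of 0 over all tested probes in each clone. The largest single changes were 2.63 (Agtrl1), 2.00 (Il24), 2.31 (Rspo3) and 4.13 (Klhl6) in the same order. In Control_R the changes ran from -0.54 (Samd14) to 0.30 (Lgals3), with a median of 0. All 3 arrays without Dox lay above all 3 arrays with Dox for 75 of 75 genes in Bub1b_R (18.6% of all tested probes), in Ppm1g_R (17.4%) and on the arrays labelled Chek1_R (19.5%), for 70 in Ppp2r1b_R (14.4%) and for 6 in Control_R (11.2%). The rule fixed these counts in the 4 clones in large part and nothing is read from them. Each of the 75 genes was detected on every -Dox array of the 4 clones. Dim genes made up most of the set: 57 of the 75 had a mean signal below the median of the tested probes, and 36 were detected on all 30 arrays.

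Without a detected signal on any of the 3 arrays with Dox, a fold is only a lower bound. This was so for 15 of the 75 genes on the arrays labelled Chek1_R, 8 in Ppp2r1b_R, 2 in Ppm1g_R and 0 in Bub1b_R. The bound takes, per +Dox array, the dimmest signal that counted as detected, unless the probe itself read more, and divides the -Dox mean by the mean of these. It was widest for Klhl6 and Rspo3, given below, and for the antiviral gene Samd9l (at least 11.0-fold on the arrays labelled Chek1_R). On the same arrays it came to at least 4.05-fold for Ly6c1, 2.71-fold for Tapbpl, 2.23-fold for Gjb2, 2.13-fold for Krt14, 1.80-fold for LOC100046255 and 1.76-fold for She. In Ppp2r1b_R it was at least 1.75-fold for Il24, 1.70-fold for Prkcdbp, 1.57-fold for Ly6c1 and 1.21-fold for Krt14, and in Ppm1g_R at least 1.32-fold for Gjb2. The log2 differences of these genes in those clones are measured from the floor.

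**Figure D1:**
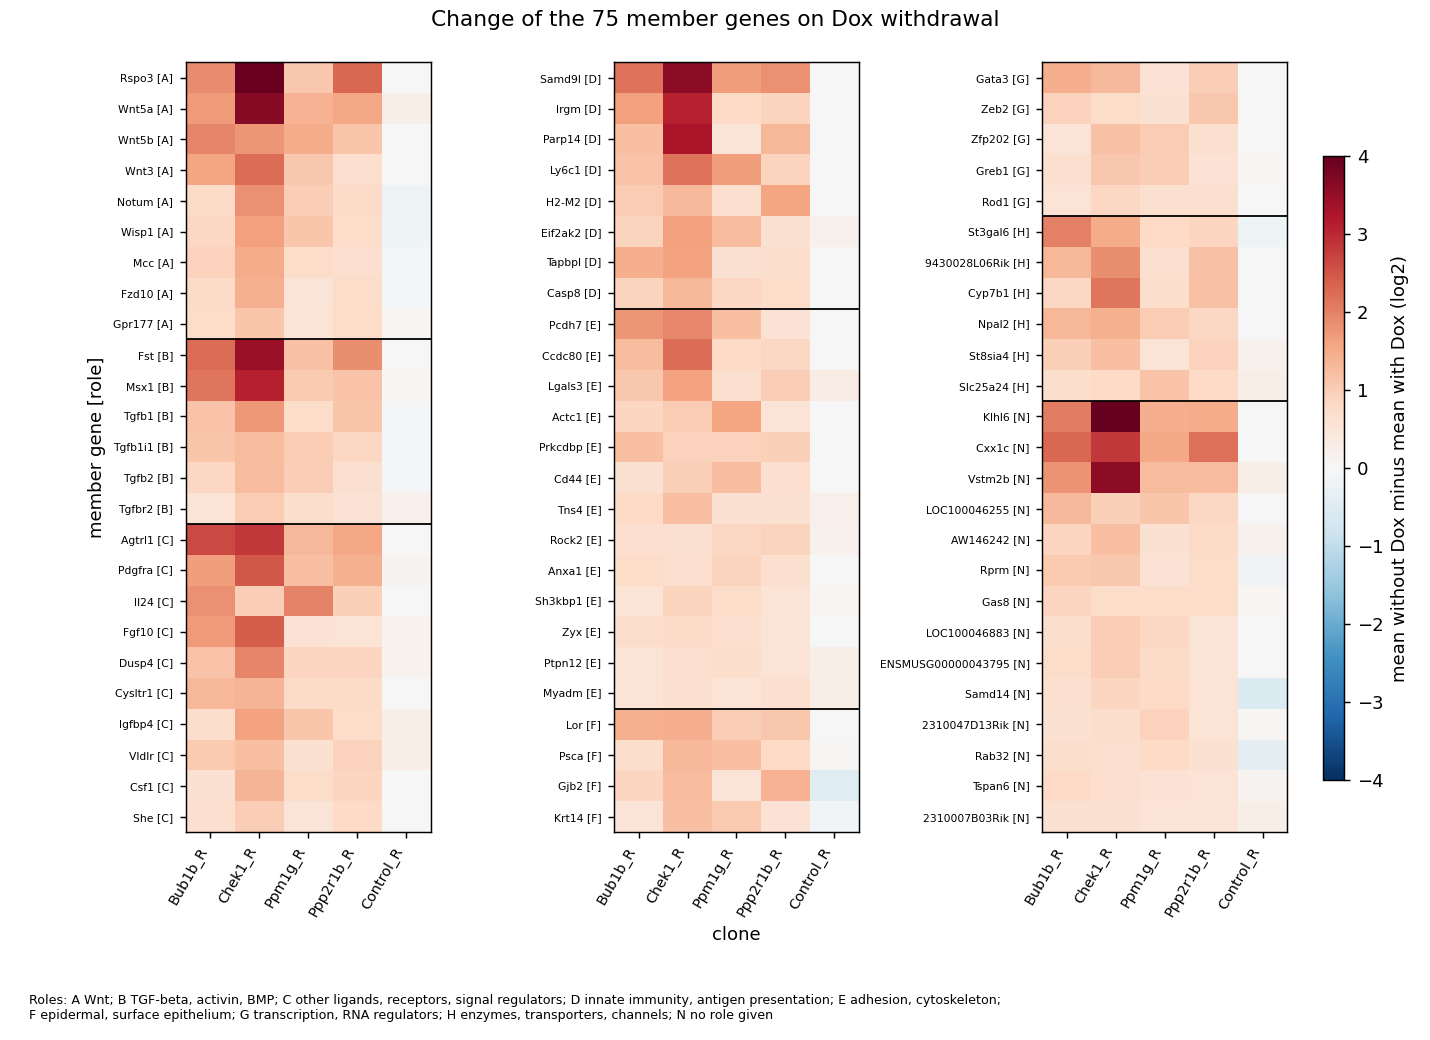
Change of each of the 75 genes on Dox withdrawal (colour, log2 difference between the means of 3 arrays without and 3 arrays with Dox) in the 5 clones (columns), with genes (rows) grouped by the role in square brackets and the colour scale ending at 4. The darkest cells lie in the Chek1_R column, for Klhl6 (4.13), Rspo3 (3.96) and Wnt5a (3.64), and the Control_R column stays between -0.54 and 0.30.

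The median level of the set lay further apart between clones with Dox than without it. On the arrays labelled Chek1_R the median level of the 75 genes was 5.86 with Dox and 7.73 without, against 6.75 and 7.88 in Bub1b_R, 6.70 and 7.60 in Ppm1g_R and 6.51 and 7.38 in Ppp2r1b_R. Among the 4 clones, the +Dox level was lowest on the arrays labelled Chek1_R for 54 of the 75 genes and shared the lowest level there for 2 more. The -Dox level was highest there for 7. These ranks were not counted over all tested probes, and the levels entered the rule, so they are not read as particular to the set. With Dox present, 54 of the 75 genes already stood at least 0.5 above Control_R with Dox in Bub1b_R (9.75% of all tested probes), 53 in Ppm1g_R (18%), 43 in Ppp2r1b_R (17.4%) and 23 on the arrays labelled Chek1_R (13.6%). The arrays of the other 3 clones differ from those of Control_R in where detection begins, as given above, and this difference and the clone cannot be told apart. No label names an array batch, and by their accession numbers the Control_R arrays were deposited before the other 24.

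**Figure D2:**
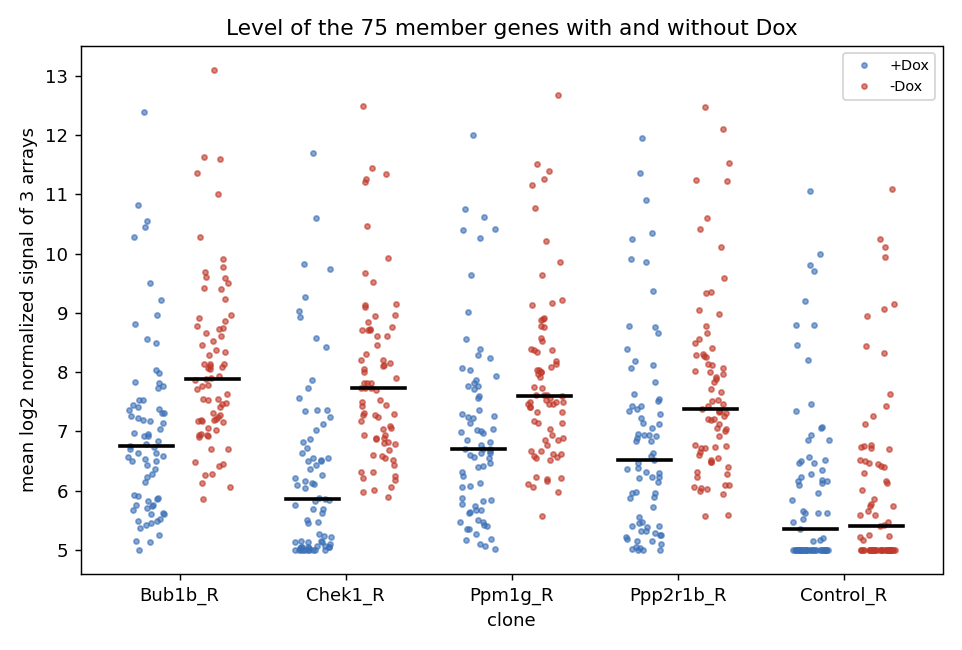
Level of the 75 genes (each point the mean log2 normalized signal of 3 arrays, with horizontal jitter) with Dox (blue) and without it (red) in each clone, with the median as a black bar. The +Dox median is lowest among the 4 clones of the rule in Chek1_R (5.86), and both Control_R medians (5.35 and 5.41) lie below those of the 4 clones.

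How flat the genes were in Control_R depended on the floor. For 32 of the 75 genes all 6 Control_R signals were at or below 32, so that no change could show. With a floor of 16, 12 of the 75 genes had a change of 0.3 or more in Control_R on the probe that stands for them. That probe would not pass the rule. By any of their probes, 64 of the 75 stayed in the set. The largest were Actc1 (1.26), She (1.06), Rod1 (0.85) and Casp8 (0.83), which read 0 with the floor of 32. Pdgfra (0.64), Lor (0.55), Irgm (0.52), Vstm2b (0.51), Zfp202 (0.50), Cyp7b1 (0.46), Wnt5b (0.38) and Gata3 (0.32) made up the rest. Under that floor 74 of the 75 still had a change of at least 0.5 in all 4 clones, the exception being Rod1 (0.47 in the clone with its smallest change).

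**Figure D3:**
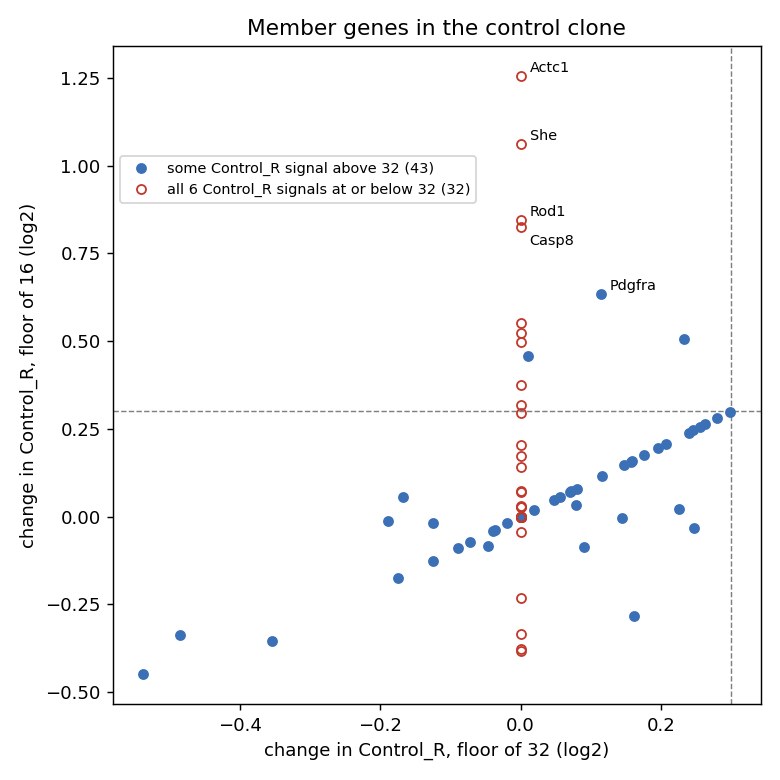
Change of the 75 genes in Control_R (log2) with the floor of 32 (horizontal axis) and of 16 (vertical axis), with the limit of 0.3 dashed and genes whose 6 Control_R signals were all at or below 32 as open circles. The 12 points above the horizontal line cross the limit with the lower floor, Actc1 (1.26) and She (1.06) by the widest margin.

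The set held 9 genes of Wnt signalling, with median changes of 0.92, 1.78, 1.06 and 0.74 in Bub1b_R, Chek1_R, Ppm1g_R and Ppp2r1b_R. They span the pathway from ligand to feedback: the ligands Wnt3, Wnt5a and Wnt5b, the secreted enhancer Rspo3, the receptor Fzd10, Gpr177 (now Wls), which carries Wnt proteins to the cell surface, Notum, which inactivates Wnt ligands outside the cell, the Wnt-inducible matrix protein Wisp1 (now Ccn4) and Mcc. Wnt5a, a ligand that acts mainly without β-catenin, had the largest smallest change of the group. With Dox, Wnt5a read 7.17, 7.20 and 7.06 in Bub1b_R, 7.66, 7.74 and 7.87 in Ppm1g_R, 5.97, 6.12 and 5.60 in Ppp2r1b_R and 5.23, 5.00 and 5.00 on the arrays labelled Chek1_R. Without Dox, Wnt5a read 8.89, 8.83 and 8.86 in Bub1b_R, 9.02, 9.30 and 9.16 in Ppm1g_R, 7.61, 7.28 and 7.41 in Ppp2r1b_R and 8.70, 8.74 and 8.70 on the arrays labelled Chek1_R. The 2 ranges did not overlap in any of the 4 clones. In Control_R, Wnt5a read 6.00, 5.89 and 5.00 with Dox and 5.79, 5.82 and 5.95 without, and there the ranges overlapped. On the arrays labelled Chek1_R Wnt5a went from near the floor to a level close to that in Bub1b_R.

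Rspo3, which stabilises Wnt receptors at the cell surface, had the highest mean change over the 4 clones of the 75 genes (2.31). With Dox, Rspo3 read 7.61, 7.42 and 7.06 in Bub1b_R, 7.15, 7.34 and 7.41 in Ppm1g_R, 5.75, 6.25 and 5.88 in Ppp2r1b_R and 5.00, 5.00 and 5.00 on the arrays labelled Chek1_R. Without Dox, Rspo3 read 9.37, 9.16 and 9.20 in Bub1b_R, 8.32, 8.38 and 8.42 in Ppm1g_R, 8.21, 8.22 and 8.39 in Ppp2r1b_R and 8.99, 8.87 and 9.04 on the arrays labelled Chek1_R. It was at the floor on all 6 Control_R arrays, and its +Dox level differed widely between the 4 clones while the -Dox arrays all read above 8. On the arrays labelled Chek1_R, Rspo3 was detected on none of the 3 arrays with Dox, and its level was at least 14.0-fold higher without it.

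Wnt3, the ligand that the embryo requires to form the primitive streak, was higher without Dox by 2.23 under the Chek1_R label, 1.57 in Bub1b_R, 1.06 in Ppm1g_R and 0.68 in Ppp2r1b_R. With Dox, Wnt3 read 5.56, 5.58 and 5.67 in Bub1b_R, 6.47, 6.36 and 6.59 in Ppm1g_R, 5.90, 5.79 and 6.23 in Ppp2r1b_R and 5.00, 5.17 and 5.00 on the arrays labelled Chek1_R. Without Dox, Wnt3 read 7.17, 7.27 and 7.09 in Bub1b_R, 7.53, 7.46 and 7.62 in Ppm1g_R, 6.59, 6.32 and 7.06 in Ppp2r1b_R and 7.33, 7.16 and 7.37 on the arrays labelled Chek1_R. The Wnt3 ranges were apart in each of the 4 clones, narrowly so in Ppp2r1b_R, and every Control_R array was at the floor. Wnt5b, a close relative of Wnt5a, was higher without Dox by 1.94 in Bub1b_R, 1.78 under the Chek1_R label, 1.48 in Ppm1g_R and 1.10 in Ppp2r1b_R, and on the arrays labelled Chek1_R detection failed with Dox, so that at least 3.08-fold is the bound. Notum, a negative feedback regulator, was higher without Dox by 1.84 under the Chek1_R label, 0.98 in Ppm1g_R, 0.78 in Ppp2r1b_R and 0.76 in Bub1b_R. The receptor Fzd10 lay closest to the limit of all 75 genes, with 0.50 in Ppm1g_R. Wisp1 (0.74 to 1.63), Mcc (0.66 to 1.49) and Gpr177 (0.56 to 1.10) completed the group.

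The promoter of Wnt5b is shown because it was one of 2 member promoters, with that of Greb1, that held the TCF/LEF motif CTTTGAT, through which β-catenin acts on its targets. The window runs from 250 bases before to 50 after the transcription start in RefSeq (GRCm38.p6, chr6:119449337-119449636, minus strand), is written 5′ to 3′ along the gene, and has the motif in capitals.
Wnt5b: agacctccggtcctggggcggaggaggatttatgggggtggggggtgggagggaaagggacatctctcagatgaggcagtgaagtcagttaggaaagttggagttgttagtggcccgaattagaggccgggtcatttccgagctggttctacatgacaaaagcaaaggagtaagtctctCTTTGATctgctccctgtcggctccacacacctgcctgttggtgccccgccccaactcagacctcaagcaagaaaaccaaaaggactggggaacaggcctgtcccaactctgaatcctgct
The match starts 71 bases before the start site, in 1 of the 3 windows that the table gives for Wnt5b. On either strand, the motif occurred in 3.03% of 66 windows of the 49 matched member genes and in 3.73% of all 32851 windows.

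A further 6 genes belong to TGF-β, activin and BMP signalling: the ligands Tgfb1 and Tgfb2, the receptor Tgfbr2, the extracellular activin inhibitor follistatin (Fst), the focal adhesion adaptor Tgfb1i1 and the homeobox factor Msx1, a target of BMP. Their median changes were 1.12, 1.5, 0.99 and 0.97. With Dox, Fst read 7.30, 7.53 and 7.75 in Bub1b_R, 7.14, 6.87 and 7.04 in Ppm1g_R, 5.28, 5.36 and 5.12 in Ppp2r1b_R and 5.00, 5.00 and 5.00 on the arrays labelled Chek1_R. Without Dox, Fst read 9.74, 9.78 and 9.78 in Bub1b_R, 8.27, 8.15 and 8.16 in Ppm1g_R, 6.93, 7.06 and 7.37 in Ppp2r1b_R and 8.64, 8.34 and 8.40 on the arrays labelled Chek1_R. Fst was at the floor on all 6 Control_R arrays and on all 3 +Dox arrays labelled Chek1_R, where it was at least 9.85-fold higher without Dox, and its ranges did not overlap in any of the 4 clones. Msx1 was higher without Dox by 3.10 under the Chek1_R label, 2.14 in Bub1b_R, 1.13 in Ppp2r1b_R and 1.06 in Ppm1g_R. Its +Dox level was high in Ppm1g_R (7.78, 7.69 and 7.66) and near the floor in Ppp2r1b_R (5.00, 5.36 and 5.08), so that the -Dox arrays of Ppp2r1b_R (6.63, 6.18 and 6.03) read below the +Dox arrays of Ppm1g_R. Tgfb1 was higher without Dox by 1.73 under the Chek1_R label, 1.15 in Bub1b_R, 1.12 in Ppp2r1b_R and 0.73 in Ppm1g_R, and Tgfb2 by 1.27 under the Chek1_R label, 0.99 in Ppm1g_R, 0.81 in Bub1b_R and 0.65 in Ppp2r1b_R. The changes of Tgfb1i1 were 0.82 to 1.25 and those of Tgfbr2 0.55 to 1.03.

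The 10 other ligands, receptors and regulators of signalling were the apelin receptor Agtrl1 (now Aplnr), the platelet-derived growth factor receptor Pdgfra, Fgf10, Csf1, Il24, the leukotriene receptor Cysltr1, Igfbp4, the ERK phosphatase Dusp4, the lipoprotein receptor Vldlr and the adaptor She. Agtrl1 and Pdgfra both mark nascent mesoderm, and Pdgfra also marks extraembryonic endoderm. With Dox, Agtrl1 read 5.00, 5.00 and 5.00 in Bub1b_R, 5.38, 5.19 and 5.24 in Ppm1g_R, 5.00, 5.00 and 5.00 in Ppp2r1b_R and 5.00, 5.00 and 5.00 on the arrays labelled Chek1_R. Without Dox, Agtrl1 read 7.51, 7.69 and 7.69 in Bub1b_R, 6.64, 6.58 and 6.47 in Ppm1g_R, 6.70, 6.63 and 6.34 in Ppp2r1b_R and 7.75, 7.89 and 7.81 on the arrays labelled Chek1_R. Agtrl1 was at the floor on all +Dox arrays of Bub1b_R, Chek1_R and Ppp2r1b_R and on all Control_R arrays, and its -Dox arrays read highest in Bub1b_R and on the arrays labelled Chek1_R. It was at least 6.30-fold higher without Dox on the arrays labelled Chek1_R and at least 2.40-fold higher in Ppp2r1b_R, where no +Dox array detected it. Pdgfra was at least 5.19-fold higher without Dox on the arrays labelled Chek1_R and at least 2.05-fold higher in Ppm1g_R, and was higher without Dox by 1.67 in Bub1b_R and 1.41 in Ppp2r1b_R.

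Il24, a cytokine of the interleukin-10 family, ordered the clones differently from most of the set, with its largest change in Ppm1g_R. With Dox, Il24 read 5.56, 5.56 and 5.00 in Bub1b_R, 5.47, 5.51 and 5.43 in Ppm1g_R, 5.23, 5.21 and 5.00 in Ppp2r1b_R and 5.00, 5.00 and 5.18 on the arrays labelled Chek1_R. Without Dox, Il24 read 7.33, 7.08 and 7.17 in Bub1b_R, 7.29, 7.32 and 7.79 in Ppm1g_R, 6.31, 6.15 and 5.84 in Ppp2r1b_R and 5.97, 6.00 and 6.21 on the arrays labelled Chek1_R. The ranges did not overlap in the 4 clones, and all 6 Control_R arrays were at the floor. Fgf10, a ligand of limb and lung outgrowth, was higher without Dox by 2.41 under the Chek1_R label, 1.70 in Bub1b_R, 0.58 in Ppm1g_R and 0.55 in Ppp2r1b_R. Dusp4, induced by ERK activity and acting against it, was higher without Dox by 1.95 under the Chek1_R label, 1.13 in Bub1b_R, 0.87 in Ppp2r1b_R and 0.85 in Ppm1g_R. The other 5 genes of the group had changes between 0.53 (She in Ppm1g_R) and 1.60 (Igfbp4 on the arrays labelled Chek1_R).

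Innate immunity and antigen presentation contributed 8 genes, with median changes of 1.16, 1.91, 0.82 and 0.90. Samd9l, an interferon-inducible factor that restricts poxviruses, had the largest smallest change of all 75 genes (1.66, in Ppm1g_R). With Dox, Samd9l read 5.86, 5.63 and 5.63 in Bub1b_R, 6.16, 5.95 and 6.12 in Ppm1g_R, 5.47, 5.39 and 5.34 in Ppp2r1b_R and 5.14, 5.00 and 5.00 on the arrays labelled Chek1_R. Without Dox, Samd9l read 7.89, 7.84 and 7.89 in Bub1b_R, 7.53, 7.87 and 7.82 in Ppm1g_R, 7.29, 7.17 and 7.19 in Ppp2r1b_R and 8.65, 8.62 and 8.58 on the arrays labelled Chek1_R. No clone showed an overlap, and all 6 Control_R arrays were at the floor. Parp14, an ADP-ribosyltransferase induced by interferon, was detected in Control_R, where it read 6.15, 6.13 and 6.23 with Dox and 6.05, 6.17 and 6.29 without.

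With Dox, Parp14 read 7.78, 7.85 and 7.55 in Bub1b_R, 7.94, 7.90 and 7.76 in Ppm1g_R, 7.13, 7.37 and 7.20 in Ppp2r1b_R and 6.02, 5.79 and 5.82 on the arrays labelled Chek1_R. Without Dox, Parp14 read 8.95, 8.94 and 8.86 in Bub1b_R, 8.48, 8.38 and 8.31 in Ppm1g_R, 8.57, 8.60 and 8.52 in Ppp2r1b_R and 9.14, 9.18 and 9.10 on the arrays labelled Chek1_R. The +Dox arrays labelled Chek1_R read below all 6 Control_R arrays for Parp14, whereas those of the other 3 clones stood well above every Control_R array, and no clone but Control_R showed an overlap. Irgm (now Irgm1), an interferon-inducible GTPase, was higher without Dox by 3.08 under the Chek1_R label, 1.63 in Bub1b_R, 0.90 in Ppp2r1b_R and 0.80 in Ppm1g_R. Eif2ak2, the kinase PKR that senses double-stranded RNA and halts translation, was higher without Dox by 1.65 under the Chek1_R label, 1.26 in Ppm1g_R, 0.90 in Bub1b_R and 0.60 in Ppp2r1b_R. Ly6c1, a surface antigen of the Ly6 family, was higher without Dox by 2.18 under the Chek1_R label, 1.67 in Ppm1g_R, 1.13 in Bub1b_R and 0.90 in Ppp2r1b_R, and the nonclassical class I gene H2-M2 by 1.58 in Ppp2r1b_R, 1.29 under the Chek1_R label, 1.02 in Bub1b_R and 0.65 in Ppm1g_R. Tapbpl (0.61 to 1.60), which edits the peptides on class I molecules, and Casp8 (0.74 to 1.34), the initiator caspase of death receptors, were the other members. Another probe of Irgm with a mean level of 13.88 had changes of -0.07 to 0.11 in the 4 clones, so these 2 probes disagree. A further probe of Irgm near the floor (mean level 5.08) had changes of 0 to 0.48.

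The promoters of Irgm and Eif2ak2 are shown because both held the core of the interferon response element, which is GAAA, any 2 bases and GAAA again, a motif added to the search after the values were seen. Both windows come from RefSeq (GRCm38.p6), chr11:48871371-48871670 for Irgm1 and chr17:78882523-78882822 for Eif2ak2, lie on the minus strand and are written 5′ to 3′ along the gene with the motif in capitals.
Irgm: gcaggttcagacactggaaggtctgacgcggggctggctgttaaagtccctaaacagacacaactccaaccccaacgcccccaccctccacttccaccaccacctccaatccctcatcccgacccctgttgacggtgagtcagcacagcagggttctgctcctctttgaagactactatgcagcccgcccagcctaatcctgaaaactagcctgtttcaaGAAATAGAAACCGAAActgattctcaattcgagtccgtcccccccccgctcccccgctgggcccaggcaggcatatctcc
Eif2ak2: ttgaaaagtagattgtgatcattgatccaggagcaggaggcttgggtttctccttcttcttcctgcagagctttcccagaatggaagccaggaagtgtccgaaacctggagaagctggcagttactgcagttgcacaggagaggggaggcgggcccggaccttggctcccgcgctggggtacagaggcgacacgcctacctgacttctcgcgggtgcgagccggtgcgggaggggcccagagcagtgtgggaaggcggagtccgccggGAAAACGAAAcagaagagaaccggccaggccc
In Irgm 2 matches overlap in tandem and start 30 and 24 bases before the start site, and in Eif2ak2 a single match starts at base 19 of the transcript. Among the member promoters Vldlr and Gpr177 also held the core. It was found in 6.06% of the 66 member windows and in 3.44% of all windows, on either strand.

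Adhesion and the cytoskeleton formed the largest group, with 13 genes and modest median changes of 0.72, 0.91, 0.79 and 0.63. They comprise the hyaluronan receptor Cd44, protocadherin Pcdh7, galectin 3 (Lgals3), annexin A1 (Anxa1), the focal adhesion proteins Zyx and Tns4, the cytoskeletal kinase Rock2, the tyrosine phosphatase Ptpn12, cardiac α-actin (Actc1), the caveolar protein Prkcdbp (now Cavin3), Myadm, Sh3kbp1 and Ccdc80. With Dox, Actc1 read 7.09, 7.28 and 7.30 in Bub1b_R, 5.09, 5.11 and 5.37 in Ppm1g_R, 5.00, 5.00 and 5.12 in Ppp2r1b_R and 5.75, 6.34 and 6.19 on the arrays labelled Chek1_R. Without Dox, Actc1 read 8.05, 8.08 and 8.12 in Bub1b_R, 6.79, 6.67 and 6.88 in Ppm1g_R, 5.61, 5.78 and 5.36 in Ppp2r1b_R and 7.07, 7.10 and 7.13 on the arrays labelled Chek1_R. Actc1, a target of serum response factor, was high in Bub1b_R already with Dox and had its largest change in Ppm1g_R, and its ranges were apart in each of the 4 clones. The +Dox arrays of Ppp2r1b_R did not detect it, and there the bound was at least 1.23-fold.

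Pcdh7 was higher without Dox by 1.77 in Bub1b_R, 1.21 in Ppm1g_R and 0.57 in Ppp2r1b_R, was at least 3.43-fold higher without Dox on the arrays labelled Chek1_R, and was at the floor on all Control_R arrays. Its 3 arrays with Dox in Ppp2r1b_R (6.09, 5.00 and 5.34) overlapped the 3 without (6.24, 5.95 and 5.95). Lgals3 was higher without Dox by 1.62 under the Chek1_R label, 1.09 in Bub1b_R, 0.99 in Ppp2r1b_R and 0.64 in Ppm1g_R and was the gene nearest the limit in Control_R (0.30). Rock2, Ptpn12, Zyx, Myadm and Anxa1 all had changes under 1 in every clone.

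The promoter of Actc1 is shown because it held the CArG box of serum response factor, which only 1 other member promoter, that of Myadm, also held. The window comes from RefSeq (GRCm38.p6, chr2:114052826-114053125, minus strand) and is written 5′ to 3′ along the gene, with the CArG box in capitals.
Actc1: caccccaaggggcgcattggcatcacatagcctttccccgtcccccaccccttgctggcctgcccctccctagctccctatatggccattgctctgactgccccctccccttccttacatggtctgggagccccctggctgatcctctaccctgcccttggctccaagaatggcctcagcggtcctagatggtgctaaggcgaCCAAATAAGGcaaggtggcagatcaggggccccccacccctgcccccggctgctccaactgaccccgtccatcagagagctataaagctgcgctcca
The box starts 47 bases before the start site. It was found in 3.03% of the member windows and in 1.63% of all windows.

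The remaining groups were smaller. Of 4 genes of epidermis and surface epithelium, the cornified envelope protein loricrin (Lor) was higher without Dox by 1.45 under the Chek1_R label, 1.41 in Bub1b_R, 1.08 in Ppp2r1b_R and 0.99 in Ppm1g_R, and keratin 14 (Krt14), the gap junction protein Gjb2 and the surface antigen Psca by 0.52 to 1.40. Among 5 regulators of transcription and RNA, Gata3, a factor of trophoblast and surface ectoderm, was higher without Dox by 1.44 in Bub1b_R, 1.30 under the Chek1_R label, 0.98 in Ppp2r1b_R and 0.57 in Ppm1g_R, and Zeb2, which represses E-cadherin, by 1.08 in Ppp2r1b_R, 0.93 in Bub1b_R, 0.75 under the Chek1_R label and 0.62 in Ppm1g_R. The group of 6 enzymes, transporters and channels included the sialyltransferases St3gal6 and St8sia4. With Dox, St3gal6 read 7.46, 7.34 and 7.43 in Bub1b_R, 8.11, 8.04 and 8.03 in Ppm1g_R, 8.03, 8.30 and 8.03 in Ppp2r1b_R and 7.30, 7.15 and 7.26 on the arrays labelled Chek1_R. Without Dox, St3gal6 read 9.41, 9.39 and 9.47 in Bub1b_R, 8.81, 8.98 and 8.83 in Ppm1g_R, 9.09, 8.86 and 8.97 in Ppp2r1b_R and 8.71, 8.76 and 8.70 on the arrays labelled Chek1_R. St3gal6 was bright in every clone, Control_R included, and its -Dox arrays stood highest in Bub1b_R, with no overlap of the ranges in any of the 4 clones. Cyp7b1, an oxysterol hydroxylase, was higher without Dox by 2.15 under the Chek1_R label, 1.17 in Ppp2r1b_R, 0.83 in Bub1b_R and 0.70 in Ppm1g_R, and the mechanosensitive channel 9430028L06Rik (now Piezo2) by 1.86 under the Chek1_R label, 1.32 in Bub1b_R, 1.18 in Ppp2r1b_R and 0.63 in Ppm1g_R.

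No role was assigned to 14 genes, among them 3 of the strongest. With Dox, Klhl6 read 7.43, 7.50 and 7.41 in Bub1b_R, 5.91, 6.26 and 6.25 in Ppm1g_R, 5.00, 5.00 and 5.05 in Ppp2r1b_R and 5.00, 5.00 and 5.00 on the arrays labelled Chek1_R. Without Dox, Klhl6 read 9.49, 9.50 and 9.49 in Bub1b_R, 7.64, 7.71 and 7.45 in Ppm1g_R, 6.64, 6.26 and 6.57 in Ppp2r1b_R and 9.10, 9.09 and 9.20 on the arrays labelled Chek1_R. Klhl6, an adaptor of a ubiquitin ligase known from B cells, was at the floor on all Control_R arrays and had non-overlapping ranges in each of the 4 clones. It was undetected with Dox on the arrays labelled Chek1_R, where it was at least 15.7-fold higher without Dox, and in Ppp2r1b_R, where it was at least 2.29-fold higher. Cxx1c (now Rtl8c), an X-linked gene derived from a retrotransposon, was at least 6.32-fold higher without Dox on the arrays labelled Chek1_R and at least 3.78-fold higher in Ppp2r1b_R, and higher by 2.31 in Bub1b_R and 1.55 in Ppm1g_R. Its near-identical copies Cxx1a (1.35, 1.29, 0.61 and 0.19) and Cxx1b (0.81, 0.89, 0.44 and 0.17) had smaller changes in Bub1b_R, Chek1_R, Ppm1g_R and Ppp2r1b_R, in that order, and probes of such copies may bind each other's transcripts. Vstm2b was higher without Dox by 3.56 under the Chek1_R label, 1.80 in Bub1b_R, 1.28 in Ppm1g_R and 1.27 in Ppp2r1b_R. Rprm, a cell cycle inhibitor that p53 induces, was higher without Dox by 1.07 under the Chek1_R label, 1.06 in Bub1b_R, 0.72 in Ppp2r1b_R and 0.58 in Ppm1g_R.

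**Figure D4:**
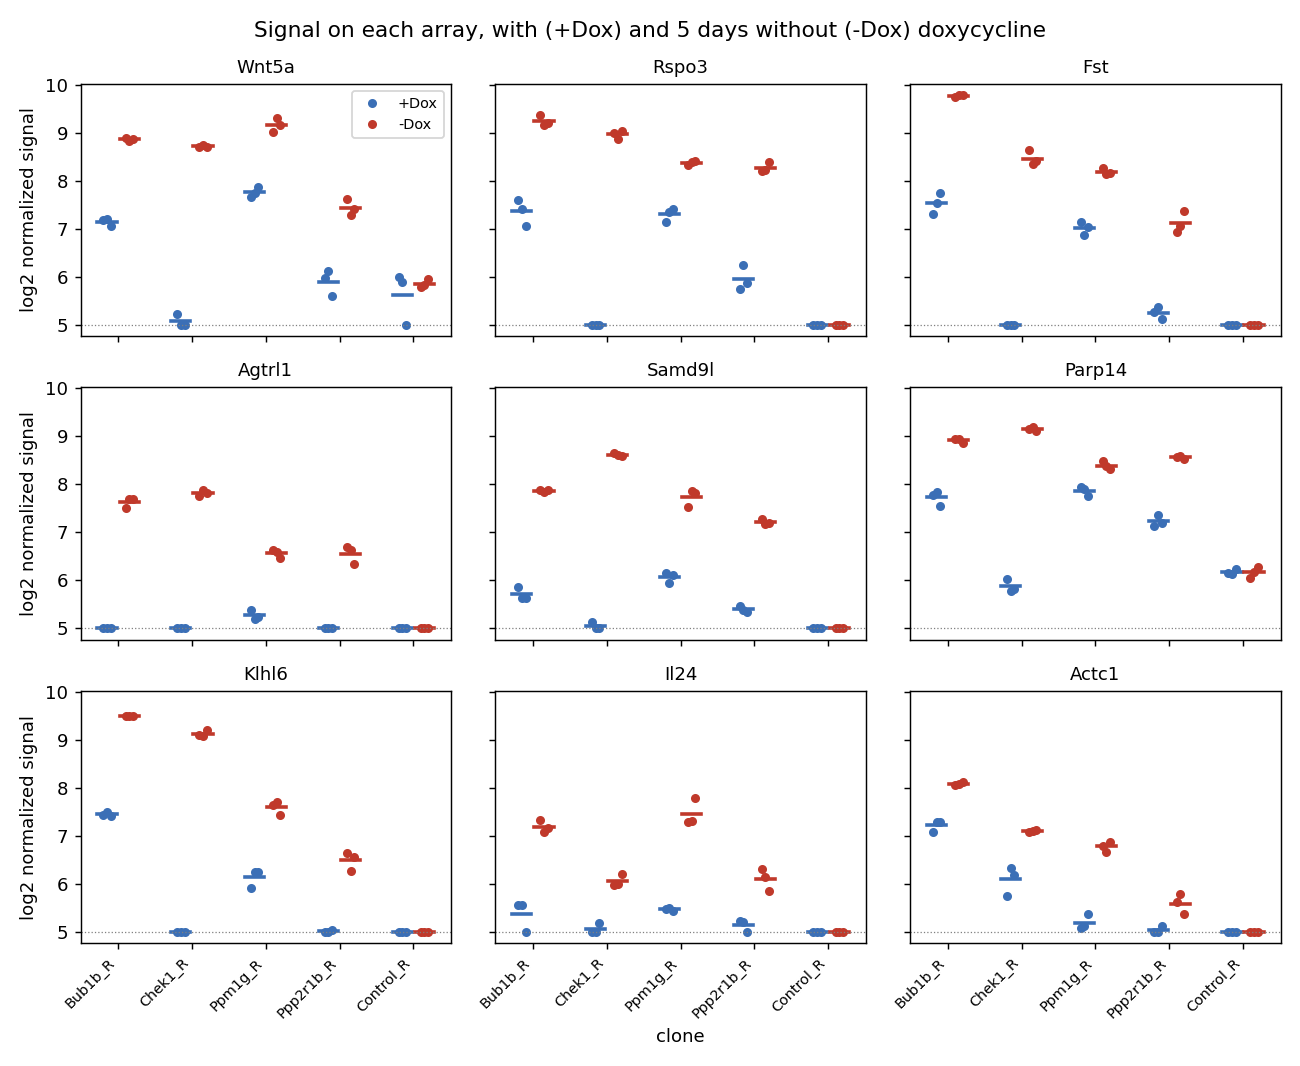
Log2 normalized signal of 9 of the 75 genes on each array (points) with Dox (blue) and without Dox (red) in the 5 clones, with the mean of 3 arrays as a bar and the floor as a dotted line. In the 4 rescue clones other than Control_R each red group lies above the blue group beside it, while in Control_R all genes but Wnt5a and Parp14 sit at the floor of 5.

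The limits cut through a continuum. The probes just inside 0.5 belonged to Fzd10 (0.50), Slc25a24 (0.51) and Zyx (0.51), and those just outside to BC016423, Vldlr and Ccnd2 (0.498, 0.495 and 0.495). Vldlr is a member through a single other probe. In Control_R, Lgals3 (0.30), Ptpn12 (0.28) and Vldlr (0.26) lay just inside, and Pea15 (0.31), B3gnt5 (0.32) and Pmp22 (0.34) just outside. A further 21 tested probes belong to 13 of the 75 genes but did not pass the rule. Of these, 3 had a change of at least 0.5 in all 4 clones and 12 were above 0 in all 4, against 15.9% of all tested probes above 0. Second probes of Igfbp4 (0.68, 1.67, 1.16 and 0.89) and Vldlr (1.22, 1.27, 0.57 and 0.83) gave changes like those of the member probe, and were left out for Control_R changes of 0.37 and 0.44. Another probe of Ptpn12 had a change of 1.13 in Control_R, more than in any of the 4 clones (0.52 to 0.82). Further probes of Ptpn12 had changes of 0.56 and 0.40 in Control_R. Its brightest probe (mean level 8.89) had changes of 0.15 to 0.45 in the 4 clones, all under the limit. Other probes of Cd44, close to the floor, had changes of -0.40 to 0.21.

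Beyond the shared direction, the size of the change was compared between clones. These tests use the arrays that chose the genes, and the rule bounds how small a change can be in any clone. A limma F-test across the 4 clones found a difference for 44 of the 75 genes at an adjusted p under 0.05, and for 26.4% of all tested probes. The 5 smallest adjusted p belonged to Klhl6 and Parp14 (2.9e-13 each), Samd9l (2.0e-11), Agtrl1 (4.9e-11) and Rspo3 (7.4e-11). By role, 7 of 9 Wnt genes, 7 of 8 innate immune genes and 8 of 10 other ligands, receptors and regulators passed. So did 5 of 13 adhesion genes and 1 of 4 epidermal genes. The roles were given with earlier results known, and a gene with a larger change has more room above the limit to differ. These counts are therefore no comparison between roles. Without the arrays labelled Chek1_R, an F-test over the other 3 clones found a difference for 26 (18.3% of all tested probes). The change was largest on the arrays labelled Chek1_R for 55 genes, in Bub1b_R and Ppm1g_R for 8 each and in Ppp2r1b_R for 4. These ranks were not counted over all tested probes and rest on the changes that chose the genes, so they are not read as particular to the set.

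Each clone's change was then set against the mean change of the other 3, and a difference was called where it reached 1.5-fold with an adjusted p below 0.05. The change on the arrays labelled Chek1_R was called larger for 30 of the 75 genes (2.03% of all tested probes) and smaller for 1 (1.95%). The largest differences there were those of Klhl6 (2.47, SE 0.10, adjusted p 3.6e-14, log2 scale), Parp14 (2.25, SE 0.09, adjusted p 4.8e-14), Rspo3 (2.21, SE 0.13, adjusted p 4.4e-11), Vstm2b (2.12, SE 0.19, adjusted p 3.5e-08) and Wnt5a (2.08, SE 0.20, adjusted p 9.7e-08). Of the 30 genes, 7 act in Wnt signalling (Rspo3, Wnt5a, Wnt3, Notum, Fzd10, Wisp1 and Mcc) and 6 in innate immunity (Parp14, Irgm, Samd9l, Ly6c1, Eif2ak2 and Tapbpl). On the +Dox arrays of that clone 10 of the 30 were undetected, so that their change is measured from the floor, and 20 were detected on 1 or more. Of the Wnt and innate immune genes named, Wnt3 (0.35), Notum (0.47), Ly6c1 (0.33) and Tapbpl (0.24) lost the call with a floor of 64. The call for Tapbpl was lost under 4 of 9 other settings and without any one of 21 arrays. The gene with the smaller change was Il24 (-0.59, SE 0.16, adjusted p 0.014), a call lost under median scaling, with neqc, with a floor of 16 or without any one of 8 arrays.

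In Ppm1g_R the change was called smaller than the mean of the other 3 clones for 19 genes (1.99% of all tested probes) and larger for 2 (1.49%). For every clone but Chek1_R that mean includes the arrays labelled Chek1_R. A large change there lowers the difference in the other clones, so these contrasts are not independent. Wnt5a was called smaller in Ppm1g_R (-0.89) and Ppp2r1b_R (-0.71). Its changes were 1.40 and 1.54, beside 1.72 in Bub1b_R and 3.64 on the arrays labelled Chek1_R. The smaller changes included Rspo3 (-1.64, SE 0.13, adjusted p 1.2e-08), Parp14 (-1.40, SE 0.09, adjusted p 4.3e-10), Fst (-1.35, SE 0.12, adjusted p 5.6e-08) and Agtrl1 (-1.04, SE 0.08, adjusted p 7.1e-09). The larger ones were Actc1 (0.78, SE 0.13, adjusted p 2.1e-04) and Il24 (0.74, SE 0.16, adjusted p 0.0029). Actc1 read 0.20 and lost the call with a floor of 64, and Il24 lost it under median scaling, with a floor of 16 and without 1 array.

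In Ppp2r1b_R the change was called smaller for 15 genes (1.75%) and larger for 1 (1.91%). Pcdh7 (-1.07, SE 0.21, adjusted p 0.0012), Fgf10 (-1.02, SE 0.28, adjusted p 0.016) and Wnt3 (-0.94, SE 0.14, adjusted p 1.1e-04) were among the smaller changes, and H2-M2 (0.60, SE 0.16, adjusted p 0.011) was the larger. For 5 of the 15 (Klhl6, Agtrl1, Il24, Ly6c1 and Actc1) no +Dox array of Ppp2r1b_R detected the gene, so that its change there is only a lower bound. Neither the size nor the direction of the difference was settled for these genes. With a floor of 16 the calls for Agtrl1, Msx1, Il24, Ly6c1, Ccdc80 and Actc1 were lost, and that for Ccdc80 was lost under 7 of 9 settings and without any one of 23 arrays. The call for H2-M2 was lost under 3 of 9 settings and without any one of 8 arrays. In Bub1b_R the change was called larger for 2 genes (0.653%), St3gal6 (0.96, SE 0.08, adjusted p 9.5e-08) and Agtrl1 (0.74, SE 0.08, adjusted p 2.0e-06), and smaller for 0 (0.442%). St3gal6 kept its call under every setting tried (0.92 to 1.24), whereas Agtrl1, at the floor with Dox in that clone, read -0.07 with a floor of 16 and 0.13 with neqc. In all, 35 of the 75 genes were called in at least 1 clone (8.81% of all tested probes) and 40 in none. Gas8, Rock2, Ptpn12, Myadm and Anxa1 were among the latter, with differences of at most 0.23 in size from the mean of the other clones in every clone.

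**Figure D5:**
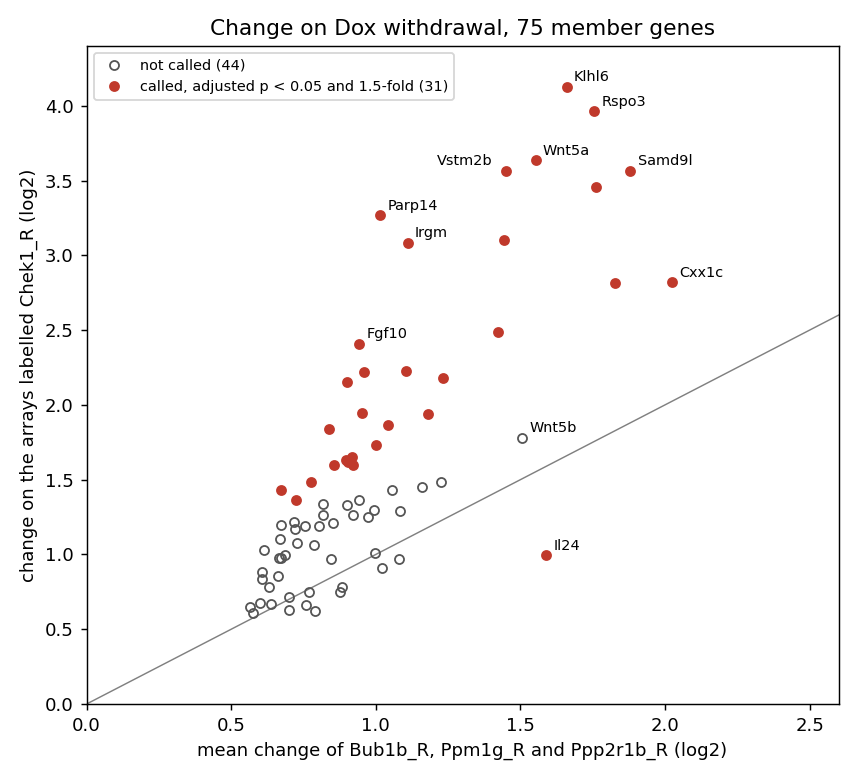
Change of the 75 genes on the arrays labelled Chek1_R (vertical axis, log2) against the mean change in Bub1b_R, Ppm1g_R and Ppp2r1b_R (horizontal axis, log2), with the line of equal change in grey and genes called different (adjusted p below 0.05, 1.5-fold or more) filled. Of the 31 filled points, 30 lie above the line, led by Klhl6 (4.13), and Il24 (1.00) lies below it.

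Gene lists written by hand place the set in its surroundings, each gene read by its brightest probe. Of all 11177 tested genes, 113 (1.01%) had a change of at least 0.5 in all 4 clones. Of 29 tested genes of the primitive streak and early mesoderm, 8 did so, of which Fst, Wnt3, Pdgfra and Agtrl1 are members, T, Cdx2 and Evx1 were left out by name, and Sp5 was left out for its change in Control_R (0.48). The median change of that list was 1.57 on the arrays labelled Chek1_R, 1.44 in Bub1b_R, 0.58 in Ppm1g_R and 0.25 in Ppp2r1b_R. In Bub1b_R, Chek1_R, Ppm1g_R and Ppp2r1b_R, 20, 22, 17 and 11 of its genes had a change of at least 0.5. Over all tested genes the shares were 5.55%, 6.32%, 4.36% and 4.59%. Dll1 (-0.25, -0.65, -1.05 and 0.38), Tbx6 and Kdr stayed under 0.5 in each clone, and Mesp1 and Lhx1 had a change of 0 in Ppp2r1b_R. Of 18 tested genes of extraembryonic and definitive endoderm only Pdgfra passed 0.5 in all 4, and of 13 trophoblast genes only Gata3 and Cdx2. Of 19 Wnt targets and feedback genes 5 passed 0.5 in all 4 clones, the members Wnt5a, Wnt5b, Notum and Fzd10 together with Sp5. In the same order of clones, 10, 10, 8 and 7 of the 19 had a change of at least 0.5. The list medians were 0.59, 0.53, 0.39 and 0.26. Axin2 had a change of 0.42 in Ppp2r1b_R, and Nkd1, Nkd2, Dkk1 and Tcf7 stayed under 0.5 in each of the 4 clones. Of 17 tested BMP and TGF-β targets only the members Tgfb2 and Msx1 passed 0.5 in all 4 clones. The medians of that list were 0.10, 0.08, 0.38 and 0.12 in that order. Of its genes 7, 6, 6 and 3 had a change of at least 0.5 and 2, 2, 2 and 1 one of -0.5 or less. Of 14 tested FGF-ERK feedback and immediate early genes only Dusp4 passed in all 4, with list medians of 0.52, 0.07, 0.34 and 0.31. The members among 29 genes of the actin cytoskeleton were Zyx, Anxa1 and Actc1, and Ahnak passed the same limit but had a change of 1.06 in Control_R.

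Of 37 tested p53 targets, Rprm and Sfn had a change of at least 0.5 in all 4 clones and 1 gene one of -0.5 or less, and the medians of the list lay between -0.18 and -0.05. The change of Sfn in Control_R was 0.69. Of 15 tested genes of a list for interferon and antigen presentation, none of which is a member, 6, 9, 1 and 7 had a change of at least 0.5 in Bub1b_R, Chek1_R, Ppm1g_R and Ppp2r1b_R and 1 in Control_R (5.55%, 6.32%, 4.36%, 4.59% and 2.18% of all tested genes). The medians of that list were 0.29, 0.52, -0.05 and 0.44. Its 1 gene past the limit in all 4 clones, Ly6a, had a change of 0.72 in Control_R. Of 17 pluripotency genes, none of which is a member, none had a change of 0.5 or more in all 4 clones, and 4, 2, 1 and 7 had one of -0.5 or less, against 1 in Control_R. The medians of that list were -0.35, -0.20, -0.11 and -0.40, and -0.15 in Control_R.

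The promoters of the 75 genes were compared with all promoters only by description. RefSeq windows were matched for 49 genes, and 26 had none. All windows belong to 27025 RefSeq genes and were not limited to genes on the array or tested. Differences from them therefore cannot be read as particular to the set. The median GC content of the member windows was 59.5%, against 52.7% over all windows, and the ratio of observed to expected CpG was 0.504 against 0.384. The GC box GGGCGG was found in 56.1% of member windows and 35.7% of all, the CCAAT box CCAAT in 31.8% and 37.4%, the TATA box TATAAA in 12.1% and 13.6%, and a p53 half-site in 12.1% and 8.36%. The T-box motif AGGTGTGA (Sh3kbp1) and the TEAD motif ACATTCC (Klhl6) each occurred in a single member window, 1.52% against 1.28% and 3.85% of all, and the cAMP element TGACGTCA in none (1.79% of all windows). Motifs were searched on both strands, and a match is not evidence of binding.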

How the data were processed

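Total RNA of 30 samples was hybridised to Illumina mouse WG-8 arrays. For 25697 probes the authors deposited the signal intensity per array after background subtraction but before any normalization. Each deposited signal has a detection p-value beside it. The submitters' processing notes name lumi, with no version. In 60 cells a spreadsheet date or time stood in place of the p-value. Of these, 34 were converted back, and the rest (26) received the p-value of the closest signal measured on that array.

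Intensities were floored at 32, taken to log2 and quantile-normalized (limma 3.58.1, statmod 1.5.0, R 4.3.3). Tests used limma on the 15151 probes detected at p under 0.05 on 3 or more arrays, with a model of 10 condition means (20 residual degrees of freedom) and Benjamini-Hochberg adjustment over all tested probes. The number of arrays limits the precision. A gene with several member probes is represented by the one with the highest mean signal. Replicate arrays correlated with r between 0.991 and 0.997. The fit was checked on simulated data.

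The members, gene lists, roles and tests were chosen with earlier results of these data known. Named genes are the 15 members with the largest smallest change, the 10 with the largest mean change, members on a list, the 5 smallest F-test p, the 3 on each side of a limit, members of a shared family and the targeted genes. Other members of a role were added after their values were seen. Of the symbols, 12 were matched to a newer RefSeq name and 3 were unmatched. Alternatives were other floors, scalings, filters and limits, neqc (offset 16), only the clones compared, a replicate block, a t statistic without moderation and leaving out each array.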

Additional observations from a re-analysis of the deposited data

Results flagged for a closer look

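The differences between clones in the change on Dox withdrawal are listed here because a test of the difference itself passed. Among the 4 clones the limma F-test gave its smallest adjusted p for Klhl6 (2.93e-13), Parp14 (2.93e-13), Samd9l (2.01e-11), Agtrl1 (4.89e-11) and Rspo3 (7.37e-11). In the contrast of one clone with the mean of the other 3, the 2 largest differences per clone were St3gal6 (0.96) and Agtrl1 (0.74) in Bub1b_R, Klhl6 (2.47) and Parp14 (2.25) on the arrays labelled Chek1_R, Rspo3 (-1.64) and Parp14 (-1.40) in Ppm1g_R, and Klhl6 (-1.07) and Pcdh7 (-1.07) in Ppp2r1b_R, all on the log2 scale. Agtrl1 in Bub1b_R did not hold with a lower floor. Klhl6 was undetected with Dox in Ppp2r1b_R, so that neither the size nor the direction of its difference there was settled. In Bub1b_R, Ppm1g_R and Ppp2r1b_R the mean of the other 3 clones includes the arrays labelled Chek1_R, so these contrasts are not independent. Groups of 3 arrays were too small for a test of single outlying arrays.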

How the results depend on the processing

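The set held 66 genes with median scaling (53 shared with the 75), 72 with neqc (58 shared), 92 with a floor of 16 (64 shared), 54 with a floor of 64 (47 shared) and 82 without the arrays labelled Chek1_R in the rule. With a limit of 0.4 it held 124 genes, with 0.6 it held 50 and with 1 it held 11. Requiring the change in Control_R to lie between -0.3 and 0.3 left 72. All 75 genes stayed above 0 in the 4 clones under the other scalings and the floor of 16, and 73 did with the floor of 64. On 17 of 30 arrays the median signal lies at the floor, so that median scaling moves them all by the same constant and does not adjust them against each other. Leaving out each array in turn gave 71 to 79 genes, of which 67 to 75 were among the 75.

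The F-test called 39 to 49 of the 75 genes under the other scalings, floors and filters, 26 without the arrays labelled Chek1_R, and 40 to 47 without 1 array. Larger or smaller changes than in the other clones were called for 31 genes on the arrays labelled Chek1_R, 21 in Ppm1g_R, 16 in Ppp2r1b_R and 2 in Bub1b_R. In Bub1b_R the count was 1 with neqc, 4 with a floor of 16 and 14 with a floor of 64, and in Ppp2r1b_R 10 with neqc. With a floor of 64 the count was 22 on the arrays labelled Chek1_R and 15 in Ppm1g_R. Without 1 array the counts were 27 to 31 on the arrays labelled Chek1_R, 15 to 23 in Ppm1g_R and 13 to 17 in Ppp2r1b_R. In Bub1b_R they were 2 to 4 (4 without replicate 3 of Bub1b_R with Dox). The difference of Agtrl1 in Bub1b_R reversed to -0.073 with a floor of 16. The cause of these shifts was not tested. Of the called differences, 12 were lost with a floor of 16, 20 with a floor of 64, 12 with neqc and 5 with median scaling.

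Replicate numbers do not pair the arrays: over 15 pairs the correlation of same-numbered arrays ran from -0.12 to 0.15, and arrays correlated best with their own number in 6 of 15. A replicate block within each clone called 42 genes by the F-test and 30, 21, 17 and 2 in the clone contrasts. A t statistic without moderation, from the same model and contrasts but with no fold limit, was also read. It called 48, 39, 34 and 23 of the 75 genes in that order at an unadjusted p under 0.05 (24.8%, 25%, 28.6% and 14.1% of all tested probes). After Benjamini-Hochberg adjustment it called 39, 27, 25 and 6 (13.3%, 13.1%, 15.4% and 3.14% of all tested probes). The floor hides changes of dim probes most on the arrays of Bub1b_R and Control_R, where 53.2% to 57.8% of signals were at or below it, against 44.0% to 52.8% on the other arrays.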
